A study of Mus musculus with 2 samples.

Results

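Glycolysis and hypoxia-response genes are described here across the cell classes of 2 mouse lungs. The set holds 34 genes, chosen by symbol among the 27998 genes listed in the deposited tables, and all 34 were found. It covers glucose and lactate transporters, the enzymes from hexokinase to lactate dehydrogenase, the regulators of pyruvate use, the gluconeogenic enzyme Fbp1, the oxygen-sensing factors and 4 transcripts that respond to low oxygen or stress. In AM-like (alveolar macrophage-like) cells Fbp1 went from 2 unique molecular identifiers (UMIs) in the control lung to 600 in the fibrosis lung. Most core enzymes of glycolysis did not differ by 1.5-fold in these cells.

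The series holds 1 library labelled control and 1 labelled fibrosis, each from the whole lung of 1 male C57Bl/6J mouse aged 3 months. The labels give 100 µg of titanium dioxide or of crocidolite asbestos, delivered into the trachea, and tissue collection 14 days later. They do not say which mouse received which particle, and the names control and fibrosis are used here for the libraries. Crocidolite is an asbestos fibre known to cause pulmonary fibrosis, and titanium dioxide often serves as an inert particle beside it.

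Glycolysis splits glucose into pyruvate, which is either passed to mitochondria or reduced to lactate and exported. When oxygen is short, prolyl hydroxylases (Egln1, Egln3) stop marking HIF-1α and HIF-2α (Hif1a, Epas1) for destruction, and these factors then switch on glucose uptake, glycolytic enzymes and mitophagy genes. HIF activity is set mainly at the protein level, so the transcript of a factor is not a measure of its activity. Alveolar macrophages live in air spaces rich in oxygen, and in the resting lung they take up lipid.

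The control library held 8280 cells and 36632591 UMIs, and the fibrosis library 7173 cells and 38090308 UMIs. After filtering, 7510 control and 6559 fibrosis cells remained, at median depths of 3706 and 4237 UMIs. The libraries shared 89 barcodes. Levels are given as CPM, the UMIs of a gene per 1000000 UMIs of the class, and ratios as log2 of fibrosis over control. Cells were assigned to classes by marker genes, and 13 classes had at least 50 cells in both libraries. Where a level is called highest, this is among those 13. In control, the counting intervals of the highest and next class overlapped for Slc2a1, Hk1, Hk2, Gpi1, Pfkl, Pfkp, Pfkm, Pfkfb3, Aldoa, Tpi1 and Pgk1. The same held for Ldha, Pdk4, Fbp1, Hif1a, Egln1, Bnip3 and Ddit4, so these places are not settled by the counts. Several members stood higher in smaller classes: the 30 mesothelial-like control cells had 506 CPM of Gpi1, 262 of Tpi1, 173 of Pfkp and 173 of Ndrg1, and 9 migratory dendritic-like control cells had 210 CPM of Pfkfb3 on 10 UMIs. A member was tested in a class with at least 50 UMIs over both libraries, and called with a difference of at least 1.5-fold. Brackets give exact 95% intervals, which cover counting error only. Each group is 1 library, which leaves no replicate to check a difference against and no statistical test, and differences between the mice, their handling and the exposure cannot be told apart. Rebuilt class names may differ from the study's own.

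Over 34 members and 13 classes, 242 of 442 pairs of gene and class were tested. The fibrosis library was higher in 29 pairs, lower in 19 and within 1.5-fold in 194. Of all genes tested, the share called higher ran from 4.68% in AM-like to 31.5% in neutrophil-like cells. The share called lower ran from 1.94% in ciliated-like to 12.8% in neutrophil-like cells. The totals over pairs were not set against a pooled share, so they show no excess by themselves. Pgk1 and Eno1, which have near-identical copies and were above control in every class, made up 12 of the 29 higher pairs, and 17 remained without them. Egln3 reached 50 UMIs in no class. The map of ratios shows where these calls lie.

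**Figure D1:**
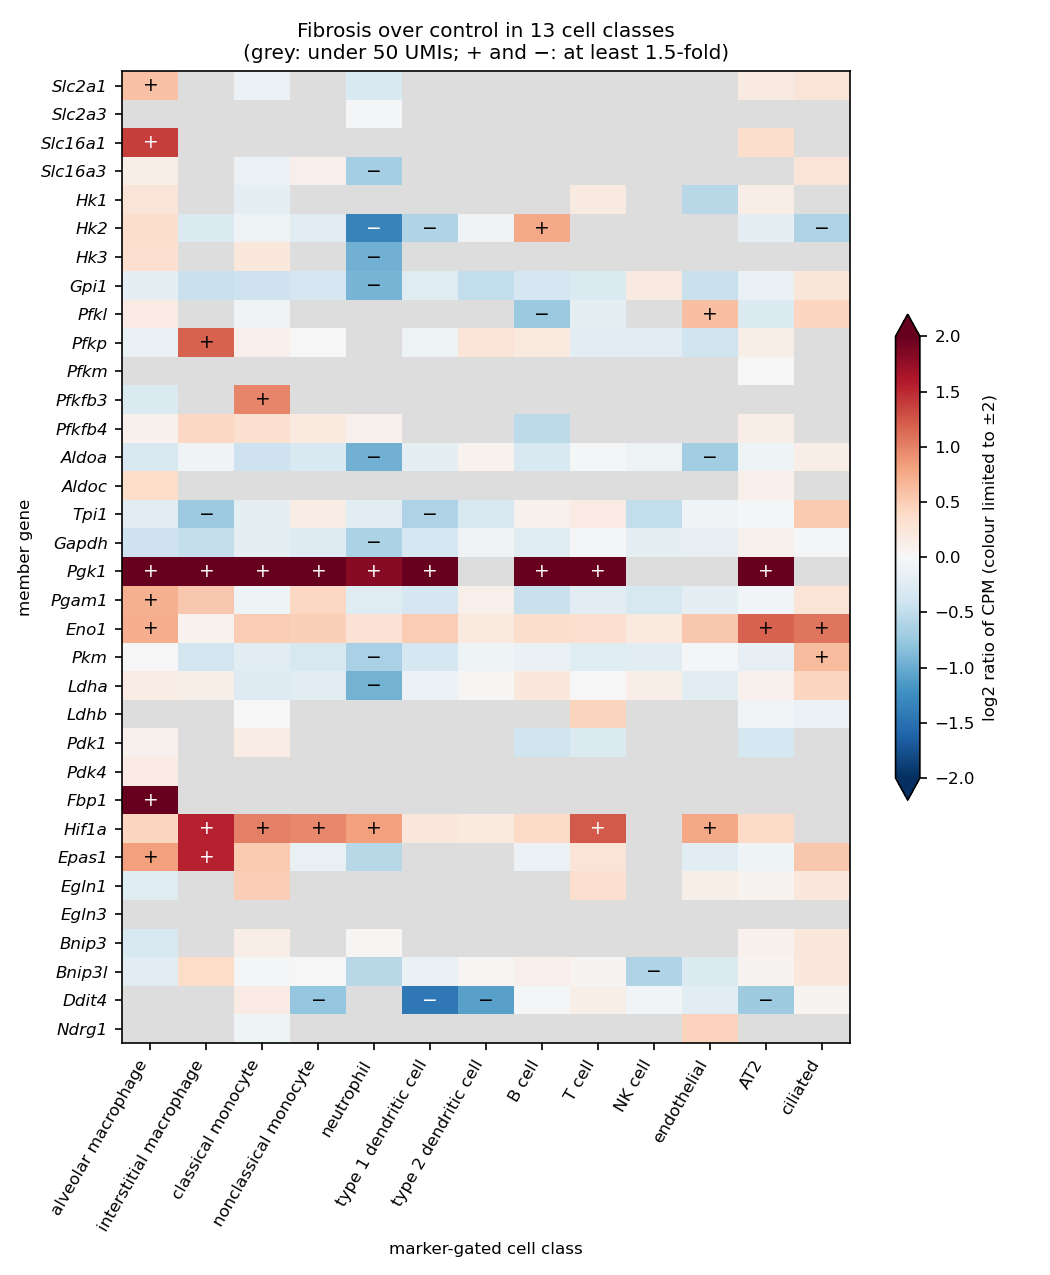
Log2 ratio of CPM (fibrosis over control) for the 34 members (rows) in 13 marker-gated classes (columns), with grey squares for under 50 UMIs and signs for differences of at least 1.5-fold. Pgk1 is red in all 9 classes with enough UMIs, Fbp1 was tested only in alveolar macrophage-like cells, and neutrophil-like cells hold 8 of the 19 lower calls.

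The promoters of 4 of the members called higher in AM-like cells are shown, to set what is known of their control beside their levels. The windows are the 250 bases before the RefSeq start site on GRCm38.p6, read 5′ to 3′ on the gene's strand. Capitals mark the core of the hypoxia response element, searched as ACGTG and GCGTG on both strands.
Fbp1, chr13:62888283-62888532, minus strand: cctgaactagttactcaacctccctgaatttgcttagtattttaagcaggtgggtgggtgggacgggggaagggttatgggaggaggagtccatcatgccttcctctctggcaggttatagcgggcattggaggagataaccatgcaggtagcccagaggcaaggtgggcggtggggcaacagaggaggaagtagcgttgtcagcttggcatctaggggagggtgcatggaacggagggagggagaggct
Slc16a1, chr3:104638414-104638663, plus strand: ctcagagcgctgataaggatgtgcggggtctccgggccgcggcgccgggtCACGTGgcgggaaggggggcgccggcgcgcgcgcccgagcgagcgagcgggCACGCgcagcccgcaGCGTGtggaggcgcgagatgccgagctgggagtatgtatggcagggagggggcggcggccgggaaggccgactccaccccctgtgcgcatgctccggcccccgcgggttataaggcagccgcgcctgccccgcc
Pgam1, chr19:41911621-41911870, plus strand: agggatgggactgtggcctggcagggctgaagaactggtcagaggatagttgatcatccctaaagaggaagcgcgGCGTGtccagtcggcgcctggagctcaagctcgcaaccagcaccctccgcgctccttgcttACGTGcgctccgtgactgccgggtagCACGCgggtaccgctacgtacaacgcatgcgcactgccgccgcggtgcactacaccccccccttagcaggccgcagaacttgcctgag
Slc2a1, chr4:119108495-119108744, plus strand: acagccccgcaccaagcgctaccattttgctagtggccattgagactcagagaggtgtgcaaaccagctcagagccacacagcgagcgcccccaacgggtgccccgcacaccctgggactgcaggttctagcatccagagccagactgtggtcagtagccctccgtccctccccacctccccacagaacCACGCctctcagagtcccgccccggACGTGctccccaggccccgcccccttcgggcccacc
The Fbp1 window held neither motif. That says only that these letters are not in this window. The Slc16a1 window held CACGTG, the E-box that other factors also bind, which counts as 1 match to ACGTG on each strand, and 2 matches to GCGTG. It held no ACGTG outside the E-box. The Pgam1 window held 1 and 2 matches, and the Slc2a1 window 1 and 1. Of 43 windows of 30 members in the table, 35 (81.4%) held either motif, against 38.6% of all 32851 windows. The set includes known HIF targets, and several genes have more than 1 window, so this is a description. A match is not a site of binding.

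Alveolar macrophage-like cells numbered 655 in control and 877 in fibrosis. All 10 markers of their list were detected in both libraries, at summed levels of 6481 and 6122 CPM. The 7 markers of type 2 dendritic cells summed to 5.70 CPM in control, with 6 detected, and 224 CPM in fibrosis, with 7 detected. Those of interstitial macrophages summed to 46.8 and 80.8 CPM, with 7 and 8 of 8 detected. Their part in the member differences was not tested. Of 28 members tested, 7 were higher (Fbp1, Pgk1, Slc16a1, Epas1, Eno1, Pgam1 and Slc2a1) and 0 lower, where 4.68% and 5.28% of all 8554 genes tested were called higher and lower. The median ratio was 0.15 over the members tested and -0.06 over all genes. With each gene's median over the other classes subtracted, 4 of 26 members were higher and 1 lower. Fbp1 and Pdk4 were tested in no other class and are not among the 26. For Slc16a1 the only other class was AT2-like cells. Of all genes, 4.25% were higher and 8.6% lower under that setting.

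Fbp1 encodes fructose-1,6-bisphosphatase, which runs the phosphofructokinase step backwards and is best known from liver and kidney. Control AM-like cells held 2 UMIs in 1 of 655 cells, or 0.600 CPM [0.0726 to 2.17]. Fibrosis AM-like cells held 600 UMIs in 133 of 877 cells, or 121 CPM [112 to 131]. The log2 ratio of 7.34 [5.80 to 10.71] ranked 1 among 8554 genes of the class.

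Most Fbp1 UMIs lay in this class. Of 686 Fbp1 UMIs in all kept fibrosis cells, 87.5% were in AM-like cells. Interstitial macrophage-like cells held 5 UMIs in 3 of 384 cells, B cell-like cells 4 UMIs in 4 of 376, and classical monocyte-like cells 0 in 433. That count allows up to 0.693% of those cells to hold an Fbp1 UMI, and sets no limit on cells that express it below detection. The share of AM-like cells with an Fbp1 UMI was 15.2% [12.9 to 17.7] at a median of 5242 UMIs per cell. In B cell-like cells, which should lack the transcript, it was 1.06% [0.291 to 2.70] at a median of 2587 UMIs. After thinning each cell to 1000 UMIs the shares were 6.50% and 0.266%. The positive AM-like cells held a median of 3 Fbp1 UMIs, 43 of them held 1, and the top 10 cells held 28.0% of the UMIs.

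Fbp1 was then set beside Mmp12, a macrophage elastase that went from 31.2 to 881 CPM in AM-like cells. The fibrosis AM-like cells were split at 10 Mmp12 UMIs per cell, into 96 high and 781 low cells. This cut divides a range and not 2 cell types: 49 cells held 5 to 9 Mmp12 UMIs and 22 held 10 to 14. Fbp1 stood at 431 CPM [383 to 483] in high cells and 71.1 CPM [63.3 to 79.6] in low cells, a log2 difference of 2.60 [2.36 to 2.83] within 1 library. The high and low cells had medians of 6720 and 5084 UMIs. In control, the 654 low cells held 0 Fbp1 UMIs, so that Fbp1 in low fibrosis cells was at least 78.9-fold higher, with 3 UMIs set for the 0. The single control AM-like cell with at least 10 Mmp12 UMIs held 92 of Mmp12 and both of the class's Fbp1 UMIs.

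The other members differed less by Mmp12. Of 27 members tested between high and low fibrosis cells, 7 were higher and 2 lower, where 8.08% of all 7277 genes tested were higher and 13.3% lower. Slc16a1 stood at 55.1 and 23.2 CPM (1.26), Pgam1 at 248 and 163 (0.61), and Pgk1 at 65.3 and 41.8 (0.66). Slc2a1, Hk3 and Pdk4, which together rested on 12, 11 and 12 UMIs in the high cells, had intervals that included 0. Gapdh, the glyceraldehyde-3-phosphate dehydrogenase, was lower in high cells at 531 against 839 CPM (-0.66 [-0.82 to -0.50]), and the mitophagy receptor Bnip3 at 4.35 against 13.9 CPM on 3 UMIs in the high cells. Between low cells of the 2 libraries, 6 of 28 members were higher and 0 lower in fibrosis, with 4.15% of all 8342 genes tested higher and 4.5% lower. These 6 were Fbp1, Pgk1, Slc16a1 (1.13), Epas1 (0.82), Eno1 (0.73) and Pgam1 (0.62). Epas1 was alike in the high and low fibrosis cells, at 59.5 and 58.0 CPM, as was Eno1 at 158 and 157 CPM. The alveolar markers were lower in high than in low cells to unlike degrees. Marco was at 71.1 against 276 CPM, Fabp1 at 92.8 against 523, Ear1 at 409 against 815 and Siglecf at 81.2 against 125. Plet1, at 758 against 966 CPM, was within 1.5-fold. The interstitial macrophage marker C1qa was higher in high cells, at 29.0 against 8.92 CPM on 20 and 38 UMIs. The part of these markers in the member differences was not tested.

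**Figure D2:**
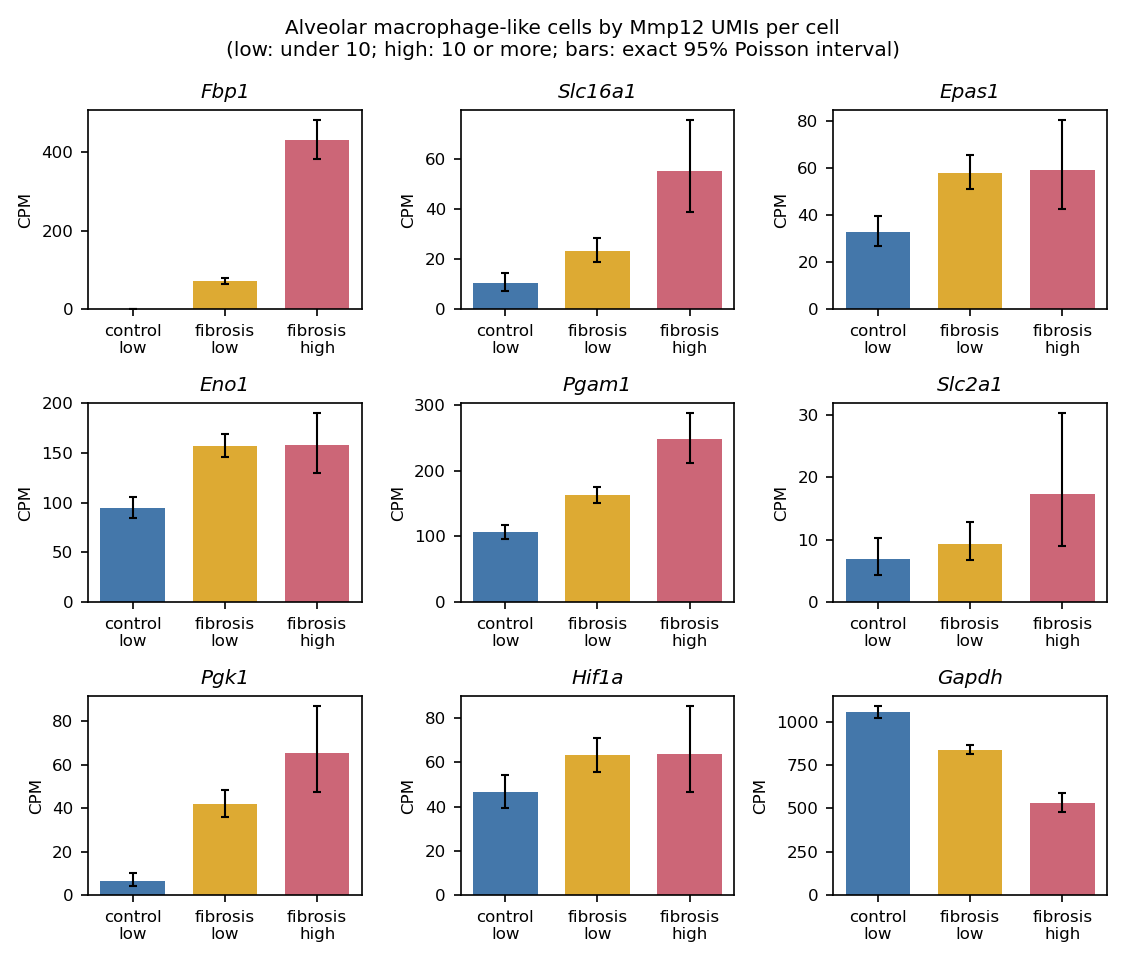
CPM of 9 members in alveolar macrophage-like cells of control with under 10 Mmp12 UMIs (blue), fibrosis with under 10 (yellow) and fibrosis with 10 or more (red), with exact 95% Poisson intervals. Fbp1 goes from 0 to 71.1 and 431 CPM, Slc16a1 and Pgam1 are highest in the red group, Epas1, Eno1 and Hif1a are level between the 2 fibrosis groups, and Gapdh goes down.

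Transporters bring glucose in and carry lactate and pyruvate across the membrane. Slc16a1, the transporter MCT1, was at 10.5 CPM [7.31 to 14.6] in control and 27.7 [23.2 to 32.7] in fibrosis AM-like cells, with a log2 ratio of 1.38 [0.85 to 1.98]. A Slc16a1 UMI was found in 5.34% and 13.6% of these cells, and in 0.468% and 0.266% of B cell-like cells. In interstitial macrophage-like cells the shares were 0.625% [0.0158 to 3.43] of 160 and 4.17% [2.40 to 6.68] of 384 cells. After thinning, the AM-like shares were 1.53% [0.734 to 2.79] and 2.96% [1.95 to 4.31], with intervals that overlapped. Slc16a1 was above control in 11 of the 13 classes, but only 2 classes had enough UMIs to be tested. In AT2-like cells, the alveolar type 2 cells that make surfactant and the class with the highest control level, it stood at 22.4 and 28.6 CPM (0.35 [0.06 to 0.65]). Outside the 13 classes, mesothelial-like cells had 435 CPM in 30 control cells and 345 CPM in 27 fibrosis cells.

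Slc2a1, the glucose transporter GLUT1, was at 6.90 CPM [4.37 to 10.4] in control and 10.5 [7.85 to 13.8] in fibrosis AM-like cells. Its ratio of 0.59 [-0.13 to 1.38] just passed 1.5-fold, and it fell short of it in 10 of 11 alternative settings. Slc2a1 was highest in ciliated-like cells (45.6 CPM control, 54.5 fibrosis) and did not differ by 1.5-fold there. Slc2a3, the GLUT3 transporter, had its highest level in neutrophil-like cells, at 119 and 117 CPM, although only 38.2% of all Slc2a3 UMIs in control and 17.8% in fibrosis lay there. Slc16a3, the lactate exporter MCT4, was also highest in neutrophil-like cells, at 313 CPM [286 to 341] in control and 195 [151 to 248] in fibrosis (-0.67 [-1.07 to -0.31]), and at 22.2 and 24.2 CPM in AM-like cells.

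Hexokinases trap glucose in the cell and phosphofructokinase commits it to glycolysis. In AM-like cells Hk2 was at 77.1 and 98.2 CPM (0.35 [0.13 to 0.57]), Hk1 at 6.90 and 8.28, and Hk3 at 8.40 and 10.7. The isomerase Gpi1 (-0.19), the phosphofructokinases Pfkl (0.16) and Pfkp (-0.14), and the regulators of fructose-2,6-bisphosphate Pfkfb3 (-0.29) and Pfkfb4 (0.09) were within 1.5-fold there. Pfkfb4 was highest in AM-like cells, at 87.3 and 92.7 CPM. Hk1 was highest in endothelial-like control cells at 52.1 CPM. The muscle form Pfkm had enough UMIs only in AT2-like cells, at 3.96 and 4.03 CPM, and its highest control level was 4.47 CPM in endothelial-like cells on 3 UMIs.

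The later steps of glycolysis make ATP and pyruvate. Aldoa, the main aldolase, was at 767 and 614 CPM (-0.32 [-0.40 to -0.24]) and Gapdh at 1056 and 796 CPM (-0.41 [-0.47 to -0.34]) in AM-like cells, both lower in fibrosis by less than 1.5-fold. Aldoc was highest in this class and stood at 45.0 and 58.0 CPM (0.36). Tpi1 (-0.22) and the pyruvate kinase Pkm (-0.01) were within 1.5-fold. Pgam1, the mutase that follows Pgk1, was at 106 CPM [95.7 to 118] in control and 175 CPM [163 to 187] in fibrosis (0.71 [0.54 to 0.90]). Pgam1 had called differences in no other class, and its B cell-like ratio was -0.45. Gapdh and Pgam1, which act close together in the pathway, thus had ratios of opposite sign in the same cells. Gapdh was not called there, however, and was below control in 12 of 13 classes. It has near-identical copies and is given below as uncertain.

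Lactate dehydrogenase and the pyruvate dehydrogenase kinases decide the fate of pyruvate. Ldha, the form that favours lactate, was at 325 and 359 CPM in AM-like cells (0.14 [0.03 to 0.25]). Ldhb was highest in ciliated-like cells (473 and 437 CPM), followed by AT2-like cells (226 and 217 CPM), within 1.5-fold in both. Pdk1 was highest in T cell-like cells, at 66.2 and 54.7 CPM. Pdk4 had enough UMIs only in AM-like cells, at 9.30 and 10.5 CPM.

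**Figure D3:**
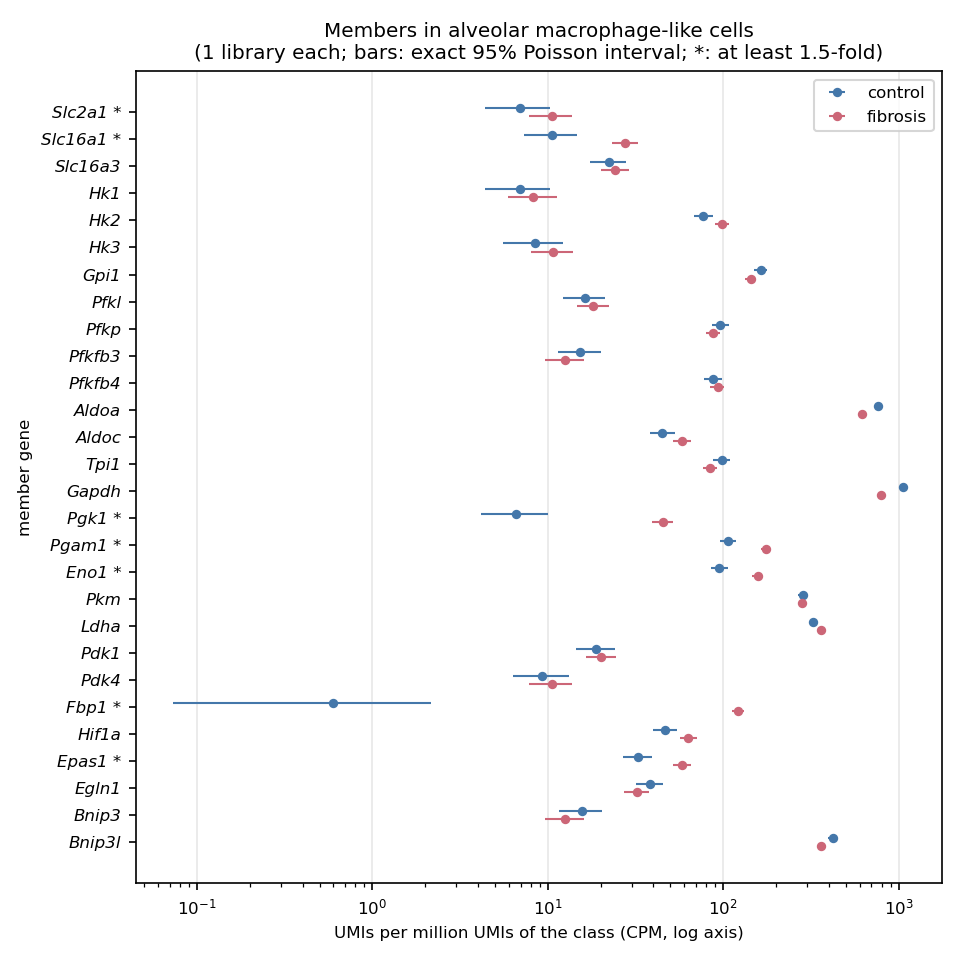
CPM of the 28 members tested in alveolar macrophage-like cells, on a log axis, in control (blue) and fibrosis (red), with exact 95% Poisson intervals and stars for differences of at least 1.5-fold. Fbp1 moves furthest, from 0.600 to 121 CPM, while Aldoa, Gapdh, Pkm and Ldha have neighbouring points.

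Among the oxygen-sensing factors, Hif1a was higher in the fibrosis library in each of the 11 classes tested, and at least 1.5-fold so in 6. The median ratio over the 11 was 0.77. Classical monocyte-like cells had 50.8 CPM [46.1 to 55.8] in control and 101 [87.5 to 117] in fibrosis (1.00 [0.74 to 1.25]). T cell-like cells had 21.5 and 50.5 CPM (1.22 [0.65 to 1.84]), and IM-like (interstitial macrophage-like) cells 25.7 and 76.5 CPM (1.53 [0.80 to 2.46]). Nonclassical monocyte-like cells had 33.3 and 64.7 CPM (0.95 [0.32 to 1.61]), neutrophil-like cells 51.5 and 90.3 (0.83 [0.17 to 1.42]), and endothelial-like cells 41.7 and 71.6 (0.77 [0.11 to 1.48]). The nonclassical monocyte-like ratio ran from 0.05 to 2.06 over 11 alternative settings and fell short of 1.5-fold in 2 of them. In AM-like cells the ratio was 0.43 [0.15 to 0.72], and in B cell-like cells 0.38 [-0.22 to 0.97]. The highest control level was 56.0 CPM in type 2 dendritic-like cells, with 66.0 CPM in fibrosis. When each class's ratio was set against the median over the other classes, the 1.5-fold line was no longer passed in classical monocyte- (0.40), nonclassical monocyte- (0.35), neutrophil- (0.23) and endothelial-like (0.14) cells, so a part of the shift was common to the classes. Whether that common part belongs to the libraries or the exposure cannot be told apart.

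Epas1 encodes HIF-2α and is a known endothelial and AT2 transcript. It was highest in endothelial-like cells, at 1771 CPM in control and 1526 in fibrosis (-0.22 [-0.33 to -0.10]), followed by AT2-like cells at 281 and 264 CPM. In AM-like cells it stood at 32.7 CPM [26.8 to 39.4] in control and 58.2 [51.7 to 65.3] in fibrosis (0.83 [0.51 to 1.16]), and in 13.9% and 25.7% of cells, or 3.21% and 6.16% after thinning. In IM-like cells it stood at 10.3 and 32.0 CPM (1.54 [0.42 to 3.15]), on 6 control UMIs. B cell-like cells had 23.4 and 21.4 CPM. Both macrophage classes passed 1.5-fold in all 11 alternatives.

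The hydroxylase Egln1 was highest in AT2-like cells, at 42.5 and 44.2 CPM, and within 1.5-fold in the 6 classes tested. Egln3 was highest in neutrophil-like cells at 11.3 and 11.7 CPM. All kept cells together held 51 Egln3 UMIs in each library, and 35.3% in control and 7.84% in fibrosis lay in neutrophil-like cells. In fibrosis the interval overlapped that of T cell-like cells, at 10.8 CPM. Of the targets, Bnip3 was highest in ciliated-like cells (69.4 and 81.2 CPM) and was called in 0 of 5 classes. Bnip3l, a mitophagy receptor, was highest in AM-like cells at 420 and 359 CPM (-0.23). Ndrg1 was highest in endothelial-like cells at 72.9 and 101 CPM (0.46 [-0.06 to 1.01]).

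Ddit4, an inhibitor of mTORC1 signalling that responds to low oxygen, glucocorticoids and other stress, differed the other way. It was lower in fibrosis in AT2-like cells, at 25.2 CPM [21.5 to 29.5] and 15.5 CPM (-0.70 [-1.02 to -0.38]). Nonclassical monocyte-like cells, where it was highest, had 151 and 88.0 CPM (-0.77 [-1.20 to -0.37]). Type 1 dendritic-like cells had 54.6 and 20.2 CPM (-1.43), which turned to 0.20 after thinning, and type 2 dendritic-like cells 120 and 56.5 CPM (-1.09). T cell-like (0.12), B cell-like (-0.03) and ciliated-like cells (0.06) were close to no difference.

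**Figure D4:**
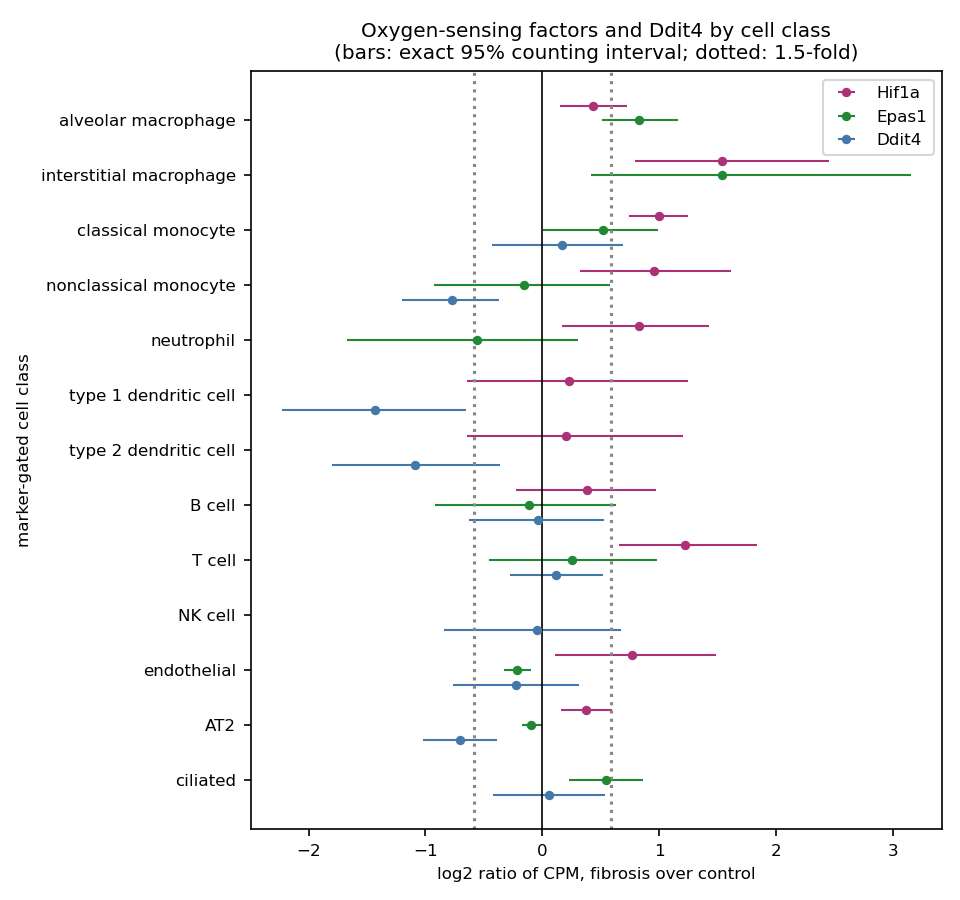
Log2 ratio of CPM (fibrosis over control) of Hif1a, Epas1 and Ddit4 in each class with at least 50 UMIs, with exact 95% counting intervals and dotted lines at 1.5-fold. All 11 Hif1a points lie right of 0, Epas1 is beyond 1.5-fold only in the 2 macrophage classes, and Ddit4 lies left of the line in 4 classes.

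Interstitial macrophage-like cells, 160 in control and 384 in fibrosis, had 15 members tested, of which 4 were higher and 1 lower, where 12.5% and 10.3% of all genes were called. Beside Hif1a, Epas1 and Pgk1, the platelet-type phosphofructokinase Pfkp was at 24.0 CPM [13.1 to 40.2] in control and 55.8 [44.8 to 68.7] in fibrosis (1.18 [0.40 to 2.15]). Tpi1 was lower, at 164 and 99.1 CPM (-0.73 [-1.10 to -0.35]). All 10 AM markers were detected in this class in both libraries, at summed levels of 199 CPM in control and 738 in fibrosis, with a median of 0 UMIs per cell in both. Without macrophages that held more than 1 marker of the other macrophage class, the ratio was 1.60 for Hif1a and 0.77 for Pfkp. Of 13 members tested then, 2 were called higher and 3 lower, against 9.23% and 8.22% of all genes.

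Classical monocyte-like cells (1631 and 433 cells) had 27 members tested, with 3 higher and 0 lower, where 11.1% and 5.5% of all genes were called. Beside Hif1a and Pgk1, Pfkfb3, a glycolytic activator, was at 7.69 CPM [5.94 to 9.80] in control and 15.0 [9.99 to 21.7] in fibrosis (0.98 [0.27 to 1.63]). Its ratio was -0.16 after thinning each cell to 1000 UMIs. Gpi1 (-0.41), Aldoa (-0.42) and Gapdh (-0.19) were below control by less than 1.5-fold. In nonclassical monocyte-like cells 2 of 17 members were higher and 1 lower, against 7% and 6.28% of all genes.

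Neutrophils rely on glycolysis for most of their ATP, and neutrophil-like cells had the highest control levels of Gapdh, Pkm, Slc16a3 and Slc2a3. The class held 735 control cells and 121 fibrosis cells. Of 19 members tested 2 were higher (Pgk1 and Hif1a) and 8 lower, while 31.5% of all 2731 genes tested were higher and 12.8% lower. The median ratio was -0.55 over the members tested and 0.22 over all genes. Aldoa was at 748 CPM [706 to 791] in control and 385 [322 to 456] in fibrosis (-0.95 [-1.23 to -0.70]), and Ldha at 407 and 210 CPM (-0.95 [-1.33 to -0.61]). Gpi1 was at 426 and 221 CPM (-0.93), Pkm at 1001 and 635 CPM (-0.65), and Gapdh at 1740 and 1124 CPM (-0.63 [-0.79 to -0.48]). Hk2 was at 54.6 and 20.4 CPM (-1.33 [-2.78 to -0.32]) and Hk3 at 42.1 and 20.4 CPM (-0.96 [-2.41 to 0.08]), both on 7 fibrosis UMIs. Eno1 did not share this direction, at 350 and 428 CPM (0.29). It was above control in all 13 classes, at a median ratio of 0.48. Of the lower members tested in 13 classes, Gapdh and Pkm were below control in 12, Gpi1 and Aldoa in 11 and Ldha in 6. Their median ratios were -0.20, -0.22, -0.34, -0.20 and 0.02. Eno1 and Gapdh have near-identical copies and are given below as uncertain. With the same lowest UMI total in both libraries, 5 of 16 members were lower, against 11.7% of all genes.

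Other measures moved with the neutrophil result. The summed level of the 8 neutrophil markers, all detected in both libraries, was 310829 CPM in control and 198754 CPM in fibrosis, and that of the 8 B cell markers, all detected too, was 139 and 606 CPM. The 8 NK cell markers went from 20.7 CPM, with 6 detected, to 606 CPM, with 8 detected, and the 6 T cell markers, all detected, from 32.0 to 227 CPM. The type 2 dendritic list went from 31.4 to 306 CPM, with 6 of 7 detected in both. The mitochondrial share was 1.06% and 2.21%, and the median of UMIs per cell 1876 and 2386. The part of these measures in the lower glycolytic levels was not tested.

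AT2-like cells, 1020 and 1769, had 26 members tested, with 2 higher (Pgk1 and Eno1) and 1 lower (Ddit4), where 7.39% and 2.47% of all genes were called. With the median over the other classes subtracted, 2 of 25 were higher and 2 lower, with 5.01% of all genes lower. Hk2 (-0.20), Ldha (0.08), Gapdh (0.09) and Hif1a (0.38) were within 1.5-fold. T cell-like cells (564 and 546) had 2 of 19 members higher (Pgk1 and Hif1a) and 0 lower, against 9.87% and 4.02% of all genes. B cell-like cells (855 and 376) had 2 of 18 higher and 1 lower, against 8.84% and 5.49%. Beside Pgk1, these were Hk2 at 13.8 and 23.3 CPM (0.76 [-0.10 to 1.60]) and Pfkl at 25.5 and 14.9 CPM (-0.74 [-1.69 to 0.07]), both with intervals that included 0. With the median over the other classes subtracted, 2 of 18 were higher and 2 lower in B cell-like cells, with 5.07% of all genes lower.

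In the remaining classes few members were called. Type 1 dendritic-like cells (90 and 203) had 1 of 14 members higher and 3 lower, against 6.54% and 7.86% of all genes. Beside Pgk1 and Ddit4, Hk2 was at 100 and 66.3 CPM (-0.60 [-1.09 to -0.10]) and Tpi1 at 125 and 82.1 CPM (-0.61 [-1.05 to -0.16]). Among the 13 classes Pfkp and Ldha were highest in this one in control, at 141 and 481 CPM, with 132 and 444 CPM in fibrosis. Type 2 dendritic-like cells (50 and 142) had 0 of 13 higher and 1 lower, against 8.32% and 7.41%, and held the highest control levels of Hk2 and Pfkfb3 among the 13 classes, at 144 and 52.0 CPM.

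NK-like cells (284 and 124) had 0 of 11 members higher and 1 lower, against 5.07% and 11.1% of all genes. This was Bnip3l, at 152 and 99.8 CPM (-0.60 [-1.21 to -0.04]), which fell short of 1.5-fold in 7 of 11 alternatives. Among the 13 classes Tpi1 was highest there in control, at 178 CPM. Endothelial-like cells (267 and 204) had 2 of 17 higher and 1 lower, against 8.74% and 12.5%. Aldoa was at 408 and 251 CPM (-0.70 [-0.97 to -0.43]) and Pfkl at 26.8 and 41.3 CPM (0.60 [-0.24 to 1.53]). The summed level of the 8 endothelial markers there was 18499 CPM in control and 11438 CPM in fibrosis, and that of the 10 AM markers 2084 CPM, with 10 detected, and 751 CPM, with 9 detected. Their part in these ratios was not tested.

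Ciliated-like cells (109 and 96) had 2 of 18 members higher and 1 lower, against 14.4% and 1.94% of all genes. Pkm was at 76.7 and 118 CPM (0.63 [0.24 to 1.02]), Eno1 at 33.3 and 69.8 CPM (1.06) and Hk2 at 29.7 and 19.1 CPM (-0.62 [-1.48 to 0.17]). Transcripts of the club cell list summed to 315445 CPM in these control cells and 200115 CPM in fibrosis, and their part in the ratios was not tested. Pfkl was highest in this class in control, at 39.8 CPM. Of the members not yet placed, Gpi1, Pgam1 and Eno1 were highest among the 13 classes in classical monocyte-like control cells, at 427, 203 and 410 CPM.

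Pgk1, Eno1 and Hif1a were above control in all 13 classes, immune and epithelial. Pgk1 encodes phosphoglycerate kinase, the first ATP-making step. It was at least 1.5-fold higher in fibrosis in all 9 classes with enough UMIs, with ratios from 1.81 in neutrophil-like to 3.59 in B cell-like cells. AM-like cells had 6.60 CPM [4.13 to 9.99] in control and 45.1 [39.3 to 51.4] in fibrosis (2.74 [2.14 to 3.47]). B cell-like cells had 3.72 and 47.6 CPM, AT2-like cells 2.70 and 26.1 (3.24), T cell-like cells 12.5 and 74.6 (2.54), and classical monocyte-like cells 25.7 and 138 (2.43). IM-like cells had 8.56 and 43.3 CPM (2.21), nonclassical monocyte-like cells 17.6 and 73.3 (2.04), neutrophil-like cells 33.3 and 117 (1.81), and type 1 dendritic-like cells 19.4 and 85.7 (2.09). Of 5070 genes tested in B cell-like cells and another class, 28 (0.552%) were higher by 1.5-fold in every class where they were tested and 11 (0.217%) lower.

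Eno1, the enolase, was tested in 13 classes and called in 3. In AM-like cells it was at 94.8 CPM [84.6 to 106] and 157 [147 to 169] (0.73 [0.54 to 0.93]), which became 0.32 when the median over the other classes was subtracted. In AT2-like cells it was at 12.5 and 28.6 CPM (1.18 [0.83 to 1.56]), and in IM-like cells at 183 and 193 CPM (0.07). The lowest ratios of Eno1 were therefore close to 0, unlike those of Pgk1.

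Near-identical copies of the members were sought in the transcripts of GENCODE M21, at 95% identity over at least 100 bases. Of the 34 members, 13 had such a match in another gene, and 3 (Gapdh, Eno1 and Ldhb) had one within the last 500 bases, near where 3′ libraries are read. Pgk1 (X, 106187100 to 106203699, plus strand, GRCm38) had 4 pseudogene copies, none matching its last 500 bases. The processed pseudogene Pgk1-rs7 held a match to it without a mismatch, and the longest best match among the 4 copies spanned 1255 bases. Pgk1-rs7 is also listed in the files, where it went from 25 to 127 UMIs over all kept cells while Pgk1 went from 447 to 1598. Their sum was 14.5 CPM in control and 50.4 CPM in fibrosis, so the sum of both shifted as well. Eno1 (4, 150236721 to 150248879, plus strand) had 4 matches to its end, and the listed copy Eno1b went from 180 to 293 UMIs. Gapdh (6, 125161715 to 125166467, minus strand) had 88 matches to its end, and was below control in 12 of 13 classes. Pgk1, Eno1 and Gapdh are given as uncertain, since reads that fit several genes can be lost or split by the counting. Pgam1 had 1 pseudogene copy identical over 765 bases and Hif1a 1 match over 151 bases, both outside the last 500. Fbp1 (13, 62864753 to 62888282, minus strand), Slc16a1 (3, 104638668 to 104658462, plus strand), Epas1 (17, 86753700 to 86833410, plus strand) and Slc2a1 had no such copy.

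**Figure D5:**
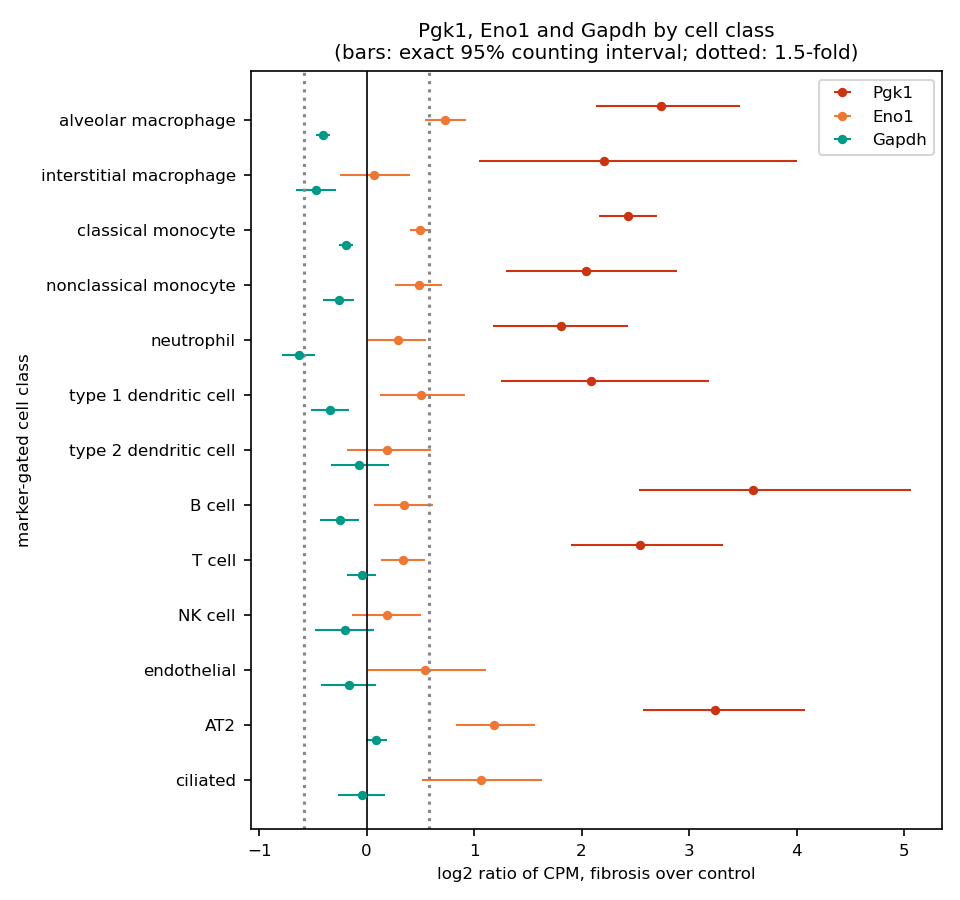
Log2 ratio of CPM (fibrosis over control) of Pgk1, Eno1 and Gapdh in each class with at least 50 UMIs, with exact 95% counting intervals and dotted lines at 1.5-fold. Pgk1 lies beyond 1.5-fold in all 9 classes shown, B cells included, Eno1 lies right of 0 in 13, and Gapdh left of 0 in 12.

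The other genes of these pathways were taken from lists written beside the members. In each class their counts stand beside the share of all genes called there. Of 30 other genes of glycolysis and pyruvate use, 16 were tested in AM-like cells. Of these, 2 (12.5%) were higher (Pgm1 and Slc2a6), against 4.68% of all genes, and 1 (6.25%) lower, against 5.28% (the ADP-dependent glucokinase Adpgk, 15.9 and 9.50 CPM, -0.74). Of 25 other genes of the HIF pathway and its targets, 17 were tested in AM-like cells, and 1 (5.88%) was higher, Sdc4 (4.50 and 9.70 CPM, 1.08), with 0 lower. In IM-like cells 2 of 4 in the first list were higher (Pdha1 and Pdhb) and 0 lower, where 12.5% and 10.3% of all genes were called. In the second 2 of 13 (15.4%) were higher and 2 lower, among them Bhlhe40 (13.7 and 86.6 CPM, 2.58 [1.64 to 3.90]) and Selenbp1 (46.2 and 17.6 CPM, -1.40). The repressor Bhlhe40 was higher in 7 of the 10 classes tested, B cell-like cells included (10.1 and 29.8 CPM, 1.55). In neutrophil-like cells 2 of 6 in the first list were lower, the pyruvate carrier Mpc1 (267 and 151 CPM, -0.80) and Adpgk (-1.11), with 12.8% of all genes lower. In the second list 2 of 5 were higher there, Plin2 (0.86) and Higd1a (0.91), with 31.5% of all genes higher. Pgm1, Slc2a6, Pdha1 and Pdhb are named after their values were seen.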

How the data were processed

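Single-cell RNA libraries of whole mouse lung (10x Genomics 3′ V2) were made from 1 control and 1 fibrosis mouse, per the labels. The deposited values are raw UMI counts per gene and cell, which the authors made with bcl2fastq and Cell Ranger 1.3 on mm10, per the submitters' processing notes. The annotation and read length are not given in the sources used here. The deposited cells had been selected before deposit: the lowest totals were 1460 and 1915 UMIs.

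Cells with under 200 genes (1 control cell) or over 10% mitochondrial UMIs (254 and 228 cells) were left out. The scrublet scores of scanpy 1.11.5 were used to remove the same expected share in each library, 0.8% per 1000 cells (515 and 386 cells), since the caller's own thresholds marked 15 and 180. A cell was given the class with the highest share of its markers detected, with at least 3 markers and 40% of the list. It was left out where another lineage had at least 3 markers with 2 or more UMIs at 60% or more of that share. There were 22 lists with 162 markers, 2 of them not used here, and the gate thresholds were set after seeing the data. Left out were 197 control and 224 fibrosis cells with markers of 2 lineages, 55 and 96 ties, and 303 and 382 with too few markers.

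UMIs were summed per class and library and scaled to 1000000. Intervals are exact Poisson, exact conditional binomial for ratios, and Clopper-Pearson for shares, all at 95%. Ratios add 0.5 UMI to each sum. A count of 0 was set to 3 counts for limits. Ratios, intervals and calls were run on simulated Poisson counts with known folds. Those counts follow the model of the intervals, so the simulation cannot test spread between cells or mice. With 1 library per group, no test was run. Matches to transcripts used BLAST 2.17.0 and GENCODE M21, which holds 98.7% of the files' gene identifiers, and promoters come from RefSeq (30 of 34 members matched). The members, lists and tests were chosen with earlier results of these data known. All members are named, with values for those called, and up to 10 other pathway genes with the largest ratios. Alternatives changed depth, filters, doublet removal, gates, scaling, shared barcodes, centring, the UMI minimum and the UMI added. Those of a 60% gate and of stricter macrophage gates were added after seeing the data.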

Additional observations from a re-analysis of the deposited data

Results flagged for a closer look

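3 members were called in opposite directions in different classes, and none of these differences between classes was tested. Hk2 had log2 ratios of fibrosis over control of -1.33 in neutrophil-like, -0.60 in type 1 dendritic-like and -0.62 in ciliated-like cells, and of 0.76 in B cell-like cells. Pfkl had -0.74 in B cell-like and 0.60 in endothelial-like cells. Pkm had -0.65 in neutrophil-like and 0.63 in ciliated-like cells. Of these 8 values, the intervals of Hk2 in B cell-like and ciliated-like cells and both of Pfkl included 0. Hk2 in type 1 dendritic-like cells fell short of 1.5-fold in 3 of 11 alternatives, to as little as -0.04. Pkm fell short in 3 of 11 in neutrophil-like cells (to -0.46) and in 3 of 11 in ciliated-like cells (to 0.18). Hk2 in neutrophil-like cells fell short in 0 of 11. In these classes the 11 include the stricter macrophage gate, which changes only macrophage-like cells.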

How the results depend on the processing

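The 48 called pairs of member and class gave 527 values under the alternatives. Of these, 496 stayed within the counting interval of the reported value, 25 moved beyond it and 6 reversed. The stricter macrophage gate changes only the 2 macrophage classes. For all other classes its values equal the reported ones by design, and they count among the 496. Short of 1.5-fold fell 59 values, 42 of them within that interval, and 31 pairs fell short at least once. In the other 17 pairs, 10 higher and 7 lower, every alternative stayed past 1.5-fold, among them Fbp1 (5.57 to 9.65), Slc16a1 (0.91 to 1.44), Epas1 (0.70 to 1.00) and Pgam1 (0.66 to 0.85) in AM-like cells. Fbp1 had 10 alternatives, since no other class was there to subtract. Thinning reversed Pfkfb3 in classical monocyte-like cells (-0.16) and Ddit4 in type 1 dendritic-like cells (0.20). Subtracting the median over the other classes reversed Pgk1 in interstitial macrophage- (-0.28), nonclassical monocyte- (-0.45), neutrophil- (-0.68) and type 1 dendritic-like cells (-0.40), which follows from its shift in every class.

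Counts of called members are given as those called of those tested, with the share of all genes called under that setting in brackets. A lower UMI minimum admits noisier genes of every kind. Under a minimum of 1 UMI, 1 of 34 [13.7%] was lower in AM-like cells. In IM-like cells 10 of 34 [20.6%] were higher and 5 [22.3%] lower, in classical monocyte-like 5 of 32 [32.6%] and 2 [9.92%], in T cell-like 10 of 33 [27.3%] and 1 [16%], in AT2-like 6 of 34 [22.2%] and 2 [10.9%], in B cell-like 12 of 33 [27.7%] and 2 [18.1%], and in neutrophil-like cells 7 of 32 [58.4%] were higher. Under 20 UMIs, 3 of 26 [13.5%] were lower in IM-like and 2 of 31 [6.87%] in classical monocyte-like cells, and 5 of 26 [14.4%] higher in T cell-, 4 of 30 [10.6%] in AT2-, 4 of 27 [40.3%] in neutrophil- and 5 of 25 [14.2%] in B cell-like cells. After thinning, 0 of 9 [11.1%] were higher in IM-, 0 of 11 [8.62%] in T cell-, 0 of 10 [7%] in B cell-, 1 of 19 [7.2%] in AT2- and 1 of 13 [24.6%] in neutrophil-like cells, with 1 [5.67%] lower in T cell-, 0 [3.14%] in AT2- and 0 [7.85%] in B cell-like cells. With the median over the other classes subtracted, 4 of 26 [4.25%] were higher and 1 [8.6%] lower in AM-like cells, 1 of 19 [7.47%] higher in T cell-like, 0 of 18 [30%] higher in neutrophil-like, and 2 of 25 [5.01%] lower in AT2- and 2 of 18 [5.07%] in B cell-like cells. With 4 markers, 3 of 28 [3.29%] were lower in AT2-like and 2 of 18 [5.46%] in B cell-like cells. Without removal by doublet score 0 of 27 [2.52%] were lower in AT2-like cells. With an equal UMI floor 5 of 16 [11.7%] were lower in neutrophil-like cells, and 1 of 13 [7.55%] higher and 0 [4.7%] lower in B cell-like cells. In the latter, 0 of 12 were higher [8.9%] or lower [6.49%] with 5% mitochondrial UMIs, and 0 of 14 [8.51%, 5.54%] with the 60% gate. The stricter macrophage gate gave 2 of 13 [9.23%] higher and 3 [8.22%] lower in IM-like cells. The cause of these moves was otherwise not tested. Thinning shifted the median of all genes by -0.19 in neutrophil-like and -0.15 in ciliated-like cells, and leaving out the most abundant genes by -0.11 in AT2-like and -0.25 in ciliated-like cells. No paired analysis was possible because each group holds 1 library, so that fewer than 2 replicate numbers are shared.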
